A study of Drosophila melanogaster and Drosophila mauritiana and Drosophila simulans with 22 samples.

Results

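The heat shock and Hsc70 chaperone genes were followed in testes of 4 Drosophila species and of 3 kinds of hybrid males. Members were the genes with an array row whose single symbol in the platform's probe table began with Hsp and a digit or with Hsc70. This gave 7 of 6793 named genes, on 18 of 15116 array rows with 1 symbol, and all 7 were among the 5107 genes tested. Hsp68 and Hsp26 were classed as stress-induced, and Hsc70-1, Hsc70-2, Hsc70-5, Hsp60C and Hsp60D as constitutive. Another 2 rows carried several symbols that match and were not used.

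Each of the 22 arrays set testis RNA (Cy5) against RNA of whole D. melanogaster males (Cy3), and the deposited values were read as ratios on a log2 scale, testes on top, although the sources used here give no base. The median of an array, which lay between -0.821 and 0.749, was subtracted from its values. A value of 0 therefore marks the array's median, and a level above or below whole males is meant relative to it. The hybrids had D. simulans mothers of strain 14021-0251.2, crossed as 10 females with 15 males per vial, and are named here by the father. Fathers were D. melanogaster of strain 14021-0231.00, D. mauritiana of strain 14021-0241.1 and D. sechellia males for which the label gives a supplier and no strain. The species groups were D. mauritiana and D. simulans and D. melanogaster of the same strains, and D. sechellia, labelled as strain #12 on 2 of its 3 arrays. There were 4 arrays of D. mauritiana and 3 of every other group. All testes were taken without accessory glands, as pools of 200, from males 4 days old kept at 25 °C with 12 h of light. The whole males on every array were D. melanogaster of strain 14021-0231.00, so all groups share 1 kind of comparison RNA. Replicates are numbered in the labels with no word on separate cultures, so p-values measure only the spread between these samples, which may be technical.

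Heat shock proteins are molecular chaperones, which bind unfolded proteins and help them fold. Members of the Hsp70 family use ATP and J-domain partners. The Hsc70 cognates are made without stress, whereas Hsp68 and the small heat shock proteins are switched on by the heat shock factor Hsf. Hsp60 proteins form a folding chamber in mitochondria, and D. melanogaster has several Hsp60 paralogs, of which some are known from the male germ line. F1 males of these crosses are known to be sterile.

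The arrays were not of equal quality, and their number limits the precision. They held between 13019 and 27648 values of 27648 rows. The SD between duplicate spots was 1.30, 1.85 and 1.74 on the sechellia arrays, against 0.22 to 0.48 elsewhere. Across tested genes, which are not independent replicates, sechellia arrays correlated at only 0.30 to 0.65, array 2 of the sechellia hybrid with arrays 1 and 3 of that group at 0.36 and 0.41, and mauritiana array 2 with its group at 0.73 to 0.79. In melanogaster testes, 2 of 2 tested accessory gland genes, 5 of 7 muscle genes, 6 of 7 gut genes, 3 of 5 eye genes, 2 of 4 fat body genes and 0 of 2 blood cell genes were lower than in whole males at an adjusted p under 0.05, and 1 gut gene was higher. In the same arrays 8 of 8 cup and comet genes (genes transcribed after meiosis) and 3 of 4 late spermatid genes were higher. In the melanogaster hybrid, also labelled as testes without accessory glands, the 2 tested accessory gland genes averaged 0.55 to 1.40, above whole males, and the late spermatid genes -3.06 to -2.50. In pooled tissue, fewer cells of a type and less RNA per cell cannot be told apart. Between species, RNA amount and the binding of each species' RNA to the same probes cannot be told apart either.

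The class medians differed in level, while the members themselves did not divide by class. Per array, the median of the 2 stress-induced members was below 0, that is below whole males, in all 7 groups: it lay between -2.35 and -1.82 in the melanogaster hybrid, -0.99 and -0.66 in the mauritiana hybrid, -1.73 and -1.67 in the sechellia hybrid, -1.97 and -0.36 in mauritiana, -1.18 and -0.47 in sechellia, -2.91 and -1.89 in simulans, and -2.89 and -2.02 in melanogaster. The median of the 5 constitutive members ran between -1.54 and -0.96 in the melanogaster hybrid, 1.21 and 1.45 in the mauritiana hybrid, -1.05 and 0.77 in the sechellia hybrid, 0.28 and 2.0 in mauritiana, 0.23 and 2.03 in sechellia, -0.38 and 0.01 in simulans, and -0.21 and 0.07 in melanogaster. The constitutive median was thus above whole males on every mauritiana, mauritiana hybrid and sechellia array and below on every melanogaster hybrid array. It rests on 5 genes that did not move as one, as the gene by gene values show. In melanogaster, the constitutive Hsc70-1 (-1.34) and Hsc70-2 (-1.45) averaged below the stress-induced Hsp26 (-1.22). In the melanogaster hybrid, Hsp60C (-3.61) and Hsc70-2 (-2.81) averaged below Hsp68 (-2.14) and Hsp26 (-2.16).

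**Figure D1:**
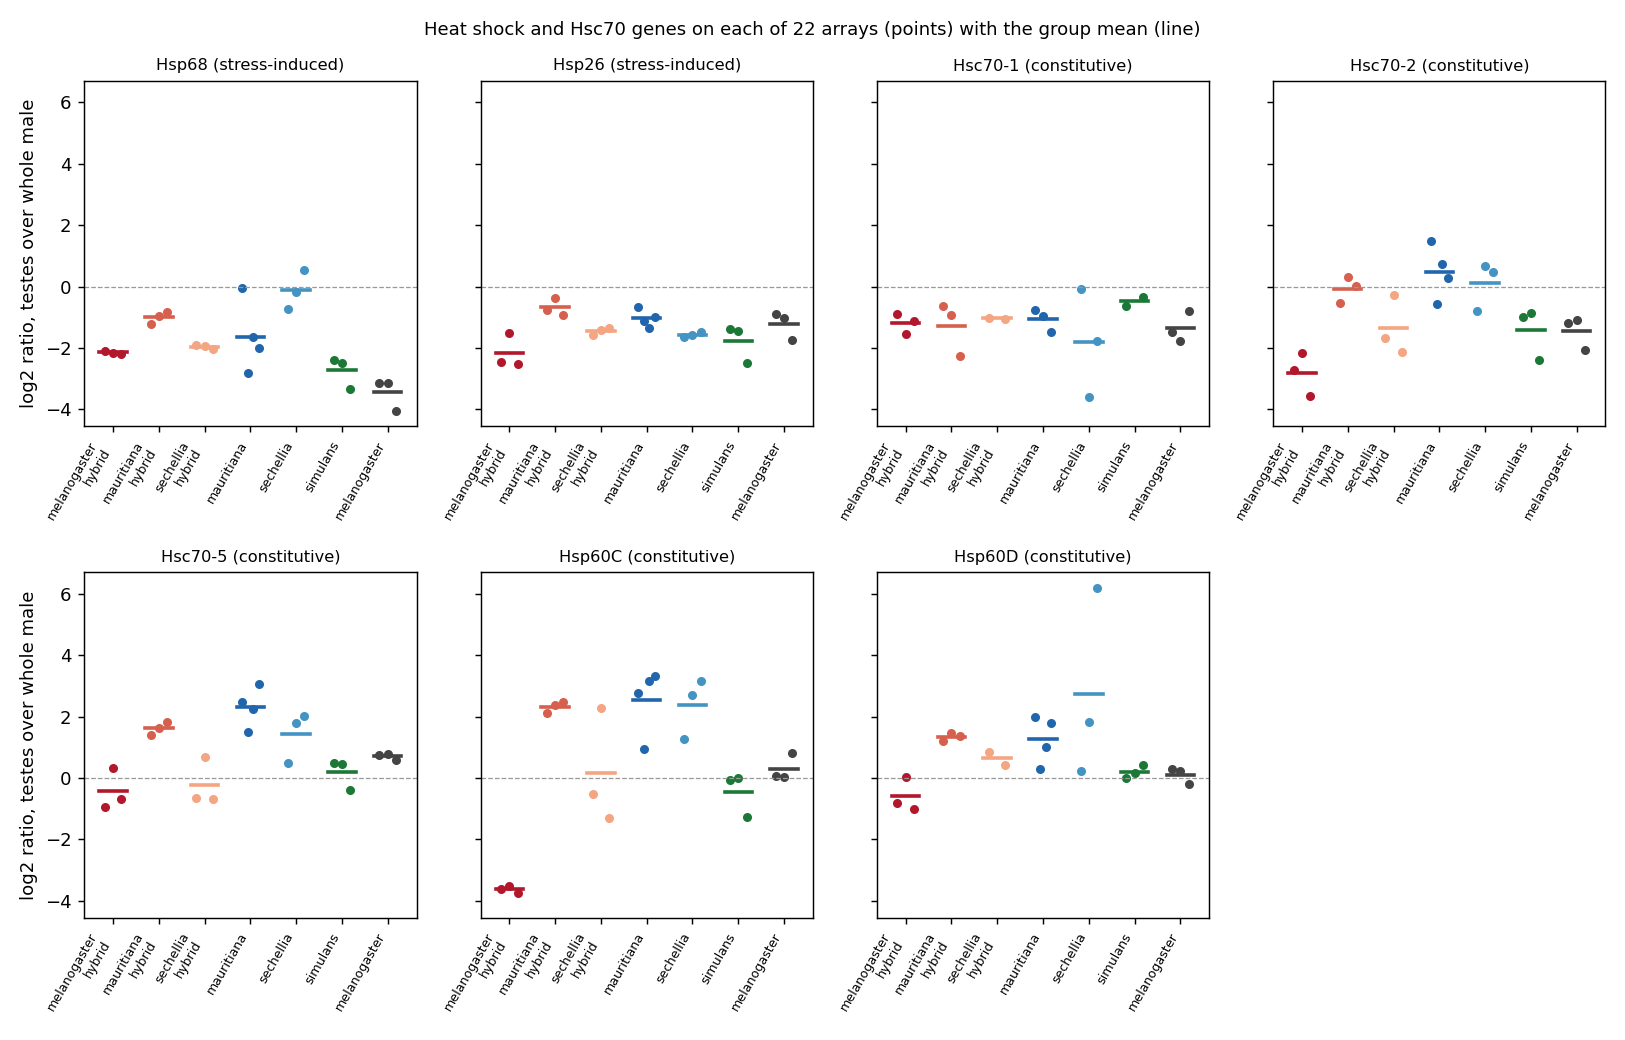
Log2 ratio of testes over whole melanogaster males (vertical axis) for each of the 7 members, with 1 point per array and a bar for the group mean, over the 7 groups. Hsp26 stays below 0 on every array, and Hsp60C spans from -3.73 in the melanogaster hybrid to 3.31 in mauritiana.

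Hsp68, a stress-induced member of the Hsp70 family, had its lowest mean in melanogaster testes and its highest in sechellia. Its values were -2.08, -2.15 and -2.19 in the melanogaster hybrid, -1.22, -0.95 and -0.83 in the mauritiana hybrid, and -1.90, -1.93 and -2.02 in the sechellia hybrid. The species arrays gave -0.05, -2.82, -1.64 and -1.99 in mauritiana, -0.73, -0.18 and 0.55 in sechellia, -2.39, -2.48 and -3.32 in simulans, and -3.14, -3.15 and -4.04 in melanogaster. The hybrids were tight and each lay above every simulans and melanogaster array, while the mauritiana arrays spread over most of the range, with array 1 high and array 2 low. From high to low the means were -0.12 ± 0.64 in sechellia, -1.0 ± 0.20 in the mauritiana hybrid, -1.62 ± 1.16 in mauritiana, -1.95 ± 0.07 in the sechellia hybrid, -2.14 ± 0.06 in the melanogaster hybrid, -2.73 ± 0.51 in simulans and -3.44 ± 0.52 in melanogaster (SD, n = 3, and 4 for mauritiana). Neighbours in this order overlapped in range, except sechellia and the mauritiana hybrid, the sechellia and melanogaster hybrids, and the melanogaster hybrid and simulans.

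Hsp26, a small heat shock protein that is also made during development and in germ cells without heat, lay below whole males on all 22 arrays. Values ran from -2.51 to -1.50 in the melanogaster hybrid, -0.92 to -0.36 in the mauritiana hybrid, -1.57 to -1.34 in the sechellia hybrid, -1.36 to -0.68 in mauritiana, -1.63 to -1.48 in sechellia, -2.50 to -1.38 in simulans and -1.75 to -0.90 in melanogaster. All neighbours in the order of means overlapped, with the mauritiana hybrid at the top (-0.68 ± 0.28) and the melanogaster hybrid at the bottom (-2.16 ± 0.57, SD, n = 3 each).

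The Hsp70 cognates Hsc70-1 and Hsc70-2 followed different courses. Hsc70-2 was highest in mauritiana and lowest in the melanogaster hybrid. It had -2.71, -2.15 and -3.56 in the melanogaster hybrid, -0.52, 0.30 and 0.01 in the mauritiana hybrid, and -1.66, -0.27 and -2.13 in the sechellia hybrid. In the species it had 1.49, -0.58, 0.73 and 0.29 in mauritiana, -0.79, 0.66 and 0.49 in sechellia, -0.99, -0.86 and -2.38 in simulans, and -1.19, -1.10 and -2.05 in melanogaster. The melanogaster hybrid averaged -2.81 ± 0.71, and its arrays all lay below those of its next neighbour in the order, melanogaster (-1.45 ± 0.53, SD, n = 3 each). All other neighbours overlapped. Hsc70-1 was below 0 on every array with a value after centring, and sechellia array 1 would lie above 0 without it (array median 0.749). Its group means ran from -0.48 ± 0.21 in simulans (2 arrays) to -1.82 ± 1.75 in sechellia (SD). It had no value on 1 array each of the sechellia hybrid, mauritiana and simulans, and its duplicate spots differed by 5.46 on 1 sechellia array, so its sechellia values of -0.09, -3.60 and -1.76 carry little.

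Hsc70-5, the mitochondrial Hsp70 (mortalin), which pulls proteins into the matrix and folds them there, was above whole males on every mauritiana, mauritiana hybrid, sechellia and melanogaster array. Its values were -0.96, 0.34 and -0.68 in the melanogaster hybrid, 1.39, 1.64 and 1.82 in the mauritiana hybrid, and -0.64, 0.68 and -0.69 in the sechellia hybrid. The species arrays gave 2.48, 1.49, 2.25 and 3.05 in mauritiana, 0.48, 1.79 and 2.03 in sechellia, 0.48, 0.46 and -0.38 in simulans, and 0.76, 0.78 and 0.57 in melanogaster. Arrays 1 and 3 of the melanogaster and of the sechellia hybrid were low, and array 2 of each was the high one; array 2 of the sechellia hybrid also stood apart from its group over all genes. In the order of means, mauritiana (2.32 ± 0.65), the mauritiana hybrid (1.62 ± 0.21), sechellia (1.43 ± 0.83) and melanogaster (0.71 ± 0.11) overlapped each with the next. Melanogaster did not overlap simulans (0.19 ± 0.49), and simulans overlapped the sechellia hybrid (-0.22 ± 0.78), which overlapped the melanogaster hybrid (-0.43 ± 0.68, SD, n = 3, and 4 for mauritiana).

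Hsc70-5 was on the array as 2 pairs of rows, and the pairs disagreed on how far the groups lie apart and on part of their order. The pair at the lower row numbers averaged 3.16 ± 0.89 in mauritiana, 0.35 ± 0.58 in simulans and 0.40 ± 0.10 in melanogaster. The pair at the higher row numbers averaged 1.65 ± 0.48 in mauritiana, 0.03 ± 0.40 in simulans and 1.01 ± 0.17 in melanogaster (SD, n = 4, 3 and 3). Both pairs put mauritiana at the top and the mauritiana hybrid (2.39 ± 0.20 and 0.85 ± 0.47) above the melanogaster hybrid (-0.76 ± 1.11 and -0.11 ± 0.32, SD, n = 3 each). Sechellia averaged 1.84 ± 0.89 on the lower-numbered pair and 0.92 ± 0.98 on the other (SD, n = 3). The lower-numbered pair thus put melanogaster below sechellia and the mauritiana hybrid, and the other put it above both. The pairs were examined apart after the data had been seen.

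**Figure D2:**
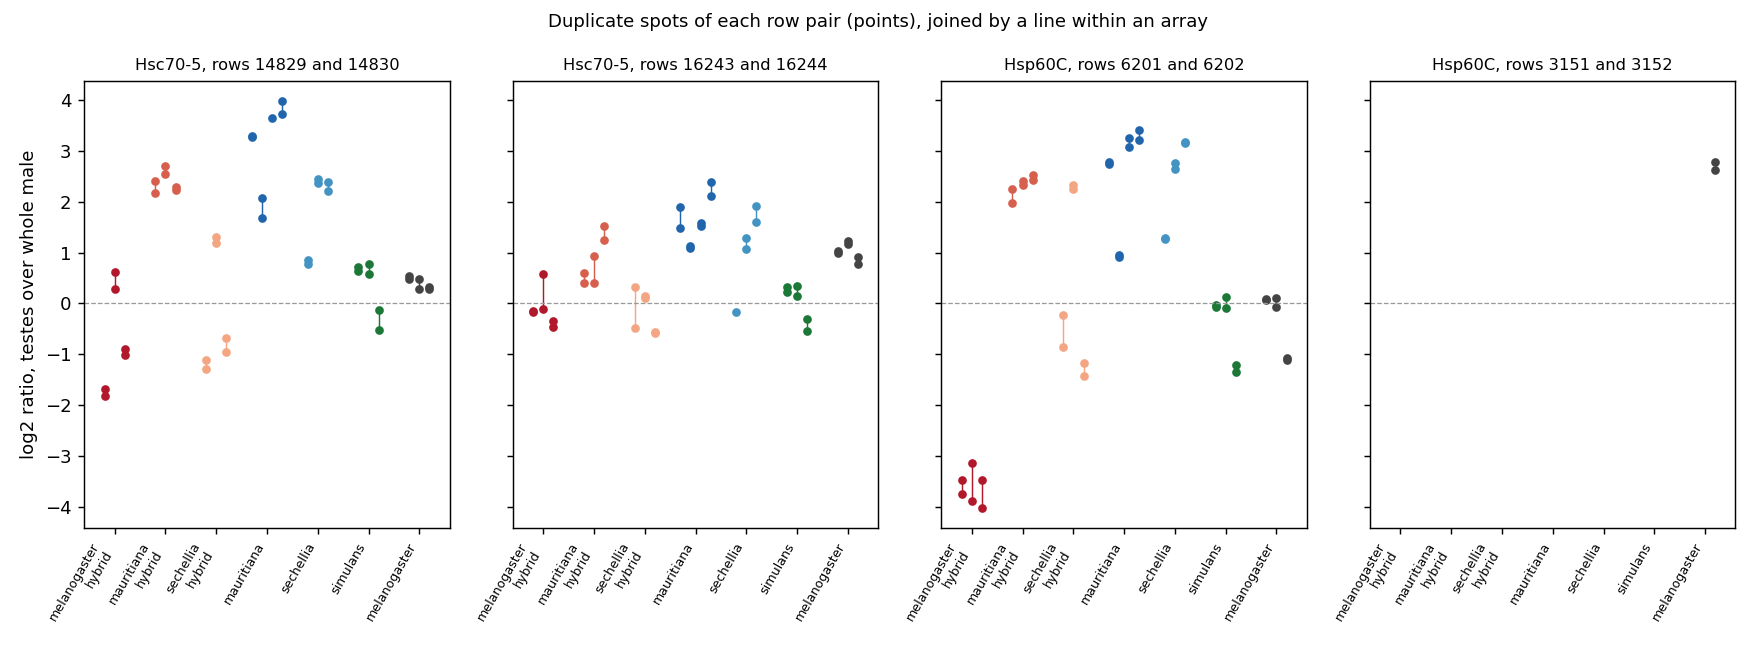
Log2 ratio of testes over whole males (vertical axis) of every spot of the 2 row pairs of Hsc70-5 and the 2 of Hsp60C, by group, with the duplicate spots of an array joined by a line. The lower-numbered Hsc70-5 pair spreads the group means from -0.76 to 3.16 and the other from -0.18 to 1.65, and the last panel holds melanogaster array 3 alone.

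The chaperonin paralogs held the widest range. Hsp60C, which is known to be needed for spermatogenesis in D. melanogaster, had -3.60, -3.51 and -3.73 in the melanogaster hybrid, 2.12, 2.36 and 2.48 in the mauritiana hybrid, and -0.53, 2.29 and -1.30 in the sechellia hybrid. In the species it had 2.76, 0.94, 3.16 and 3.31 in mauritiana, 1.27, 2.70 and 3.17 in sechellia, -0.05, 0.01 and -1.28 in simulans, and 0.07, 0.02 and 0.81 in melanogaster. All arrays of the melanogaster hybrid thus lay below all arrays of any other group, and all arrays of the mauritiana hybrid above all of simulans and melanogaster. From high to low the means were 2.54 ± 1.09 in mauritiana, 2.38 ± 0.99 in sechellia, 2.32 ± 0.19 in the mauritiana hybrid, 0.30 ± 0.44 in melanogaster, 0.15 ± 1.89 in the sechellia hybrid, -0.44 ± 0.73 in simulans and -3.61 ± 0.11 in the melanogaster hybrid (SD, n = 3, and 4 for mauritiana). Neighbours overlapped except the mauritiana hybrid and melanogaster, and simulans and the melanogaster hybrid. A further row pair of Hsp60C had values only on melanogaster array 3 (2.62 and 2.78); without it that array stood at -1.09 and the melanogaster mean at -0.33 ± 0.65 (SD, n = 3).

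Hsp60D, another chaperonin paralog, also had its lowest mean in the melanogaster hybrid (-0.59 ± 0.56, SD, n = 3), and neighbours in the order of means all overlapped. Values ran from -1.01 to 0.04 in the melanogaster hybrid, 1.21 to 1.45 in the mauritiana hybrid, 0.28 to 2.0 in mauritiana, 0.00 to 0.43 in simulans and -0.21 to 0.29 in melanogaster, and the sechellia hybrid had 0.85 and 0.42 on its 2 arrays with a value. The sechellia arrays gave 0.23, 1.82 and 6.18, and the last of these rests on 1 spot.

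The melanogaster arrays ask what the testis holds more or less of than the whole male. Hsp68, Hsp26, Hsc70-2 and Hsc70-1 were lower in testes than in whole males, and no member was higher. Of all tested genes, 44.3% differed either way and 13.9% were lower (limma, Benjamini-Hochberg adjusted p under 0.05), beside 4 of 7 members lower. Hsp68 fell by 3.44 ± 0.36 on the log2 scale (SE, adjusted p = 3.19e-07) and Hsp26 by 1.22 ± 0.26 (adjusted p = 0.000646). Hsc70-2 was at -1.45 ± 0.41 (adjusted p = 0.00733), which did not pass without melanogaster array 3 (-1.14, adjusted p = 0.0861). Hsc70-1 was at -1.34 ± 0.45 (adjusted p = 0.0212), which did not pass without array 1 (-1.27, adjusted p = 0.1) or array 2 (-1.13, adjusted p = 0.138), or with the closest array pairs averaged (-1.20, adjusted p = 0.141). The mitochondrial members did not pass: Hsc70-5 stood at 0.71 ± 0.34 (adjusted p = 0.101), Hsp60C at 0.30 ± 0.51 (0.665) and Hsp60D at 0.11 ± 0.64 (0.909). On the higher-numbered row pair alone, Hsc70-5 was above whole males (1.02 ± 0.30, adjusted p = 0.00995). The median of the 7 members was -1.22, against 0.18 over all tested genes.

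**Figure D3:**
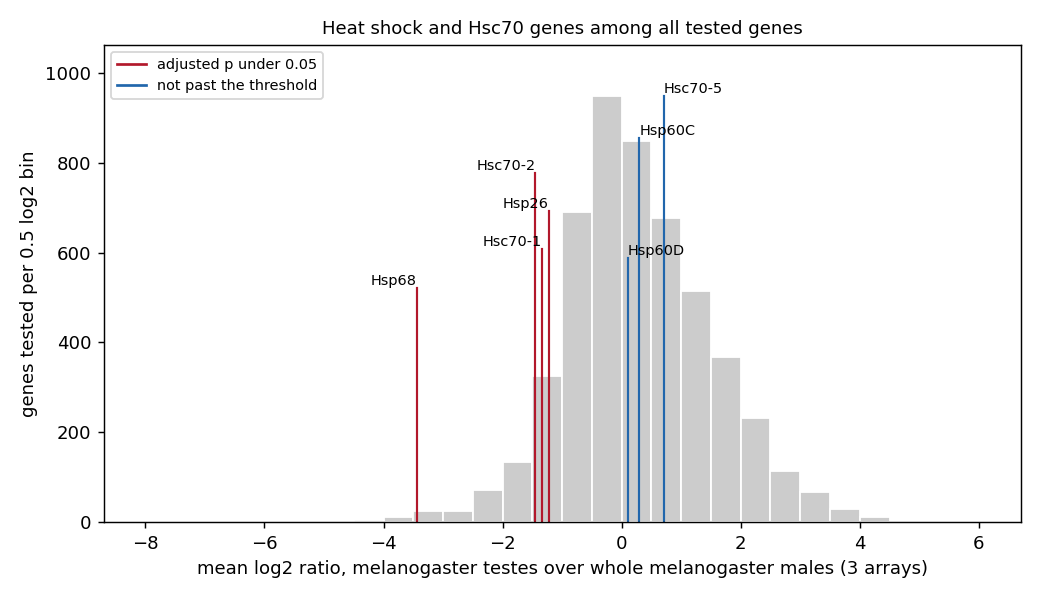
Number of tested genes (vertical axis) by log2 ratio of melanogaster testes over whole males (horizontal axis, bins of 0.5), with a marked line for each member. Hsp68 at -3.44 lies far in the lower tail, and Hsc70-5 at 0.71, Hsp60C and Hsp60D lie among the bulk of genes.

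Many partners of these chaperones were higher in melanogaster testes than in whole males. Of 58 listed co-chaperone and related genes, 33 were on the array and 27 were tested, and 14 were higher and 2 lower than in whole males, with a median of 1.01. Background shares were 30.4% higher and 13.9% lower. HIP, which steadies Hsp70 bound to its substrate, was at 3.09 ± 0.31 (SE, adjusted p = 2.17e-07), and p23, a partner of Hsp90, at 1.84 ± 0.27 (adjusted p = 1.42e-05). The J-domain genes mrj (2.34 ± 0.36), DnaJ-H (2.34 ± 0.34) and DnaJ-60 (1.80 ± 0.37), and Trap1, the mitochondrial relative of Hsp90 (2.47 ± 0.46), were higher too. The genes that were lower were Pdi, a disulfide isomerase of the endoplasmic reticulum (-2.41 ± 0.25, adjusted p = 1.06e-06), and stv, a BAG-domain partner of Hsp70 (-1.74 ± 0.30, adjusted p = 0.000111). Of the genes in this paragraph, HIP, Pdi and p23 were named by smallest p, and the others were chosen after their values were seen.

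Between simulans and melanogaster testes no member passed the test, in a comparison where 1.06% of all genes did. At an unadjusted p under 0.05 the count was 0 as well, and the share of all genes at that threshold was not counted. When limma weighted the arrays 3 members passed, beside 2884 of the 5107 tested genes. The median difference of the members was 0.04, against -0.06 over all genes. Hsp68 differed by 0.71 ± 0.51 (SE, adjusted p = 0.708), Hsc70-5 by -0.52 ± 0.48 (0.83) and Hsp60C by -0.74 ± 0.72 (0.841). Of the co-chaperones, Sgt, which hands proteins to Hsp70 and Hsp90, fell by 2.49 ± 0.48 (adjusted p = 0.00867), and no other passed, beside 1.02% of all genes lower.

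Mauritiana testes held more Hsp68, Hsc70-2 and Hsc70-5 than melanogaster testes. Of all genes 6.64% differed and 2.19% were higher, beside 3 of 7 members higher and none lower. The differences were 1.82 ± 0.47 for Hsp68 (SE, adjusted p = 0.0248), 1.93 ± 0.55 for Hsc70-2 (0.0383) and 1.61 ± 0.45 for Hsc70-5 (0.0359). Hsp60C had 2.24 ± 0.68 (adjusted p = 0.0507) and passed without the row pair seen on 1 array only (2.87 ± 0.69, adjusted p = 0.0167). The mauritiana and melanogaster arrays did not overlap for any of these 4 genes, and the share of all genes without overlap was not counted. All 3 calls ended with the closest array pairs averaged and without melanogaster array 1, 2 or 3 or mauritiana array 1 or 3, with the Hsc70 calls ending without mauritiana array 4 as well. For Hsc70-5 the values with 1 array left out that did not pass ran down to 1.37 (adjusted p = 0.088), for Hsc70-2 to 1.59 (adjusted p = 0.119) and for Hsp68 to 1.29 (adjusted p = 0.0748). Without mauritiana array 2 and the other arrays that stand apart (sechellia 1 and sechellia hybrid 2), a choice made after seeing the data, all 3 passed, at 2.22 for Hsp68, 2.28 for Hsc70-2 and 1.89 for Hsc70-5. On the higher-numbered row pair alone, Hsc70-5 differed by only 0.64 ± 0.40 (adjusted p = 0.363), and on the other by 2.77 ± 0.60 (adjusted p = 0.00913). The median over the members was 1.61, against -0.19 over all genes. Of the 27 co-chaperones, Pdi was higher (1.61 ± 0.40, adjusted p = 0.0241) and 3 were lower, among them HIP (-1.71 ± 0.40, adjusted p = 0.0155) and p23 (-1.51 ± 0.35, adjusted p = 0.0143), beside 4.44% of all genes lower. Accessory gland genes averaged -1.99 to -1.05 in mauritiana, against -4.95 to -3.90 in melanogaster, without overlap. Blood cell genes averaged -1.21 to -0.39, against -0.33 to -0.20, also without overlap. The part of both in these differences was not tested.

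Against simulans testes, mauritiana testes held more Hsc70-5, Hsp60C and Hsc70-2. Of all genes 11.0% differed and 6.74% were higher, beside 3 of 7 members higher. Hsc70-5 was higher by 2.13 ± 0.45 (SE, adjusted p = 0.00653), a call that held for each row pair (2.82 ± 0.60, adjusted p = 0.00641, and 1.62 ± 0.40, adjusted p = 0.0149) and with any 1 array left out. Hsp60C was higher by 2.98 ± 0.68 (adjusted p = 0.00916), with 2.56 and an adjusted p of 0.0544 without simulans array 3. Hsc70-2 was higher by 1.89 ± 0.55 (adjusted p = 0.0321), and did not pass in 6 of 7 fits without 1 array. For Hsc70-2 the lowest of those was 1.41 (adjusted p = 0.16), without simulans array 3, and for the others the array left out was simulans 1 or 2 or mauritiana 1, 3 or 4. It also ended with the closest array pairs averaged (2.13, adjusted p = 0.0911). Hsp68 had 1.1 ± 0.47 (adjusted p = 0.138), and 1.5 without mauritiana array 2 (adjusted p = 0.03). The member median was 1.11, against -0.13 over all genes. Among co-chaperones 4 were higher, with Sgt at 2.33 ± 0.44 (adjusted p = 0.00308) and the chaperonin subunit CCT5 at 2.0 ± 0.51 (adjusted p = 0.0178), and p23 alone was lower (-1.60 ± 0.35, adjusted p = 0.00825), beside 4.29% of all genes. Marker sets without overlap of arrays were accessory gland genes (-1.99 to -1.05 in mauritiana, against -3.37 to -3.12 in simulans) and cup and comet genes (1.08 to 1.99, against 0.50 to 0.86). Fat body genes (-1.19 to -0.83, against -0.70 to -0.48) and blood cell genes (-1.21 to -0.39, against -0.24 to 0.03) did not overlap either. The part of these markers in the differences was not tested.

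Sechellia testes held more Hsp68 than those of any other species. Hsp68 differed by 3.32 ± 0.51 from melanogaster (SE, adjusted p = 6.43e-05), by 2.61 ± 0.51 from simulans (adjusted p = 0.00116), and mauritiana stood below sechellia at -1.5 ± 0.47 (adjusted p = 0.0267). The first of these differences held with any 1 array left out and in all 15 other settings run, as did that from simulans. The difference from mauritiana ended without mauritiana array 2 (-1.11, adjusted p = 0.079) or 4 (-1.38, adjusted p = 0.0751) or sechellia array 3 (-1.17, adjusted p = 0.11), or with the closest array pairs averaged (-1.5, adjusted p = 0.0512). All 3 differences passed without the arrays that stand apart, at 3.63, 2.91 and -1.41. The duplicate spots of the sechellia arrays were far apart over the whole array, and the part of this in the result was not tested.

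Against melanogaster, 4 of 7 members were higher in sechellia, where 33.7% of all genes differed and 7.66% were higher. Besides Hsp68 these were Hsp60C (2.08 ± 0.72, SE, adjusted p = 0.0319), Hsp60D (2.64 ± 0.90, adjusted p = 0.0300) and Hsc70-2 (1.57 ± 0.58, adjusted p = 0.0439). The Hsp60D value turned on sechellia array 3, without which it was 0.92 (adjusted p = 0.176), and it also ended without melanogaster array 1, 2 or 3. Its SE comes from 1 spread over all 7 groups, though its SD was 3.08 in sechellia and 0.28 in melanogaster (n = 3 each). The sechellia and melanogaster arrays overlapped for Hsp60D. Hsc70-2 ended without sechellia array 2 or 3 or any melanogaster array, down to 1.27 (adjusted p = 0.156), and Hsp60C without sechellia array 2 or 3 or melanogaster array 1 or 2, down to 1.69 (adjusted p = 0.111). Without the row pair seen on 1 array, Hsp60C was at 2.71 ± 0.73 (adjusted p = 0.00792). The member median was 1.57, against -0.48 over all genes. Of the co-chaperones 2 were higher and 10 lower, among them Pdi (2.55 ± 0.36, adjusted p = 5.99e-05), Sgt (-4.07 ± 0.48, adjusted p = 4.32e-06) and HIP (-2.91 ± 0.43, adjusted p = 5.32e-05), beside 26.1% of all genes lower. Cup and comet genes averaged -0.18 to 1.21 in sechellia, against 1.58 to 1.97 in melanogaster, and eye genes -4.62 to -2.98, against -2.38 to -2.12. Muscle genes averaged -3.90 to -2.80, against -2.19 to -1.84. The part of these differences in the results was not tested. All of these calls but that of Hsp68 ended with the closest array pairs averaged (adjusted p from 0.0836 to 0.1).

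Against simulans, 3 of 7 members were higher in sechellia, where 26.2% of all genes differed and 6.76% were higher. Hsp60C was higher by 2.82 ± 0.72 (SE, adjusted p = 0.00876) and Hsp60D by 2.55 ± 0.90 (adjusted p = 0.0426), and Hsp60D had 0.83 (adjusted p = 0.244) without sechellia array 3 and no call without simulans array 1, 2 or 3 or with the closest array pairs averaged (2.49, adjusted p = 0.133). Hsc70-2 (1.53 ± 0.58, adjusted p = 0.0579) and Hsc70-5 (1.24 ± 0.48, adjusted p = 0.0621) did not pass. The member median was 1.53, against -0.36 over all genes. Co-chaperones were higher in 2 cases and lower in 9, with p23 at -2.03 ± 0.38 (adjusted p = 0.000827) and the prefoldin Pfdn5 at -2.22 ± 0.42 (adjusted p = 0.000965), beside 19.5% of all genes lower. Eye genes averaged -4.62 to -2.98 in sechellia, against -1.97 to -1.85 in simulans, and muscle genes -3.90 to -2.80, against -2.10 to -1.60. Fat body genes averaged -2.80 to -0.92, against -0.70 to -0.48, and accessory gland genes -4.56 to -3.47, against -3.37 to -3.12. The part of these markers in the differences was not tested. Between mauritiana and sechellia, where 22.8% of genes differed and 6.36% were lower in mauritiana, Hsp68 was the 1 member called. The member median there was 0.36, the same as over all genes, and 7 co-chaperones were higher and 2 lower, with Sgt at 3.91 ± 0.44 (adjusted p = 4.40e-06), beside 16.5% of all genes higher.

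**Figure D4:**
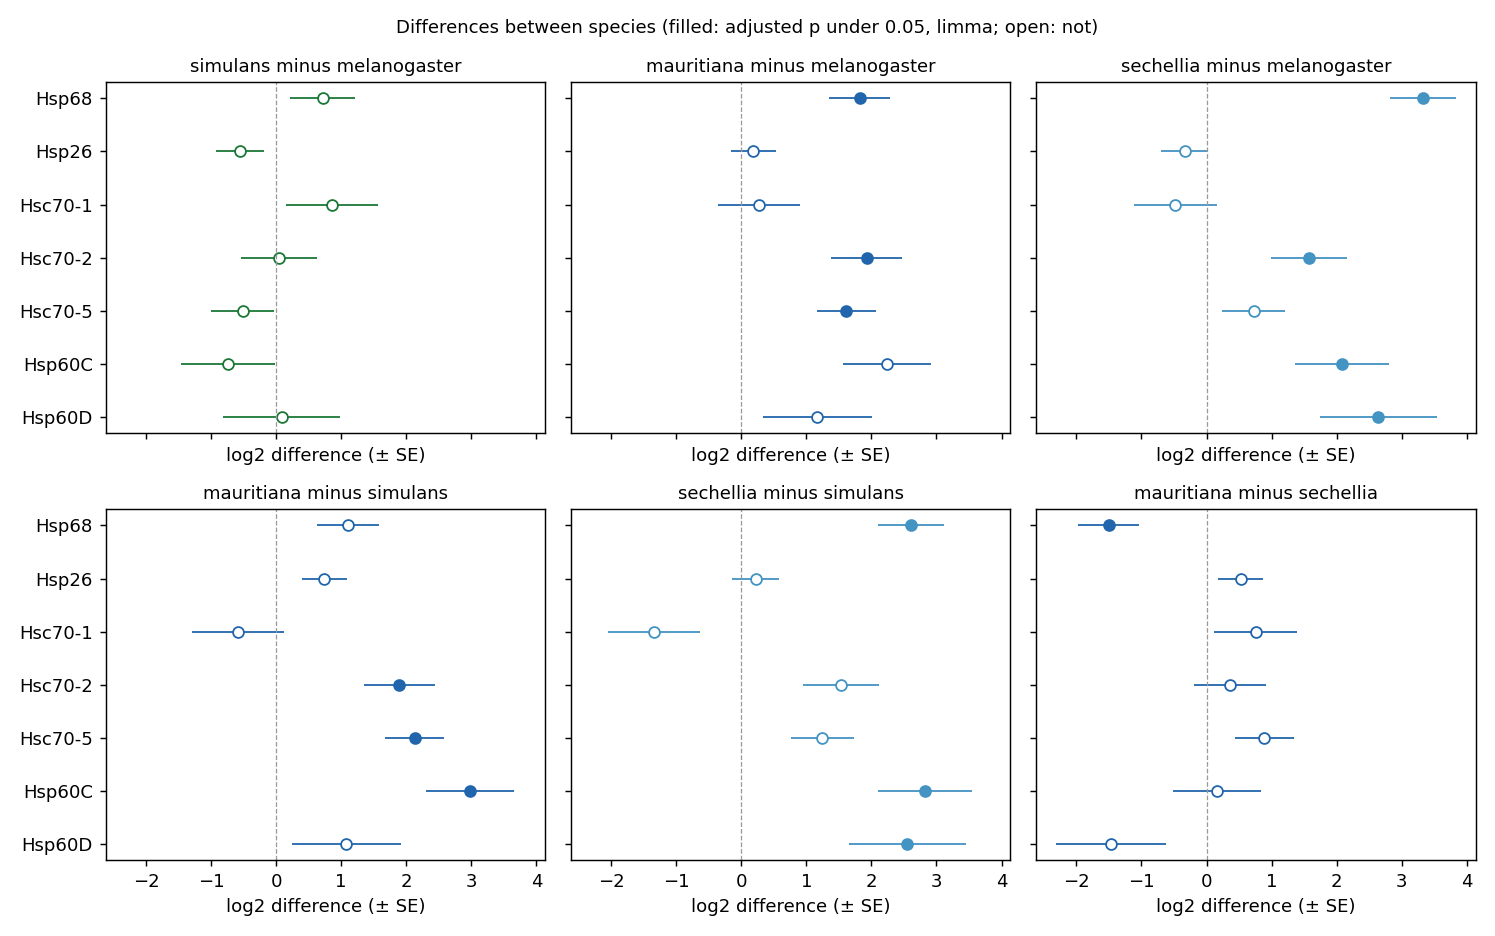
Log2 difference between testes of 2 species (horizontal axis, ± SE) for each member in the 6 species comparisons, filled where the adjusted p is under 0.05. Hsp68 in sechellia against melanogaster is the furthest point at 3.32, and no member is filled for simulans against melanogaster.

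The melanogaster hybrid held less Hsp60C than both of its parent species. Hsp60C fell by 3.17 ± 0.72 against simulans, the mother's species (SE, adjusted p = 0.00248), and by 3.91 ± 0.72 against melanogaster, the father's (adjusted p = 0.000247). Without the row pair seen on 1 array, the second was -3.28 ± 0.73 (adjusted p = 0.00158). It was the 1 of 7 members called in each comparison, where 23.6% and 30.4% of genes differed, 13.9% and 20.1% were lower, and 13.0% were lower than both parents. Both calls held with any 1 array left out, from -3.74 to -2.95 over all settings against simulans and from -4.75 to -3.28 against melanogaster. The other constitutive members had Hsc70-2 at -1.40 ± 0.58 against simulans (adjusted p = 0.0957) and -1.36 ± 0.58 against melanogaster (0.0879), and Hsc70-5 at -0.62 ± 0.48 (0.439) and -1.14 ± 0.48 (0.0834). Of the stress-induced members, Hsp68 was at 0.59 ± 0.51 against simulans (adjusted p = 0.494) and 1.30 ± 0.51 against melanogaster (0.0563), with no overlap of arrays in either, and Hsp26 at -0.38 ± 0.36 (0.556) and -0.94 ± 0.36 (0.0574). Arrays did not overlap either, with the hybrid lower, for Hsc70-1 against simulans (-0.71 ± 0.71, adjusted p = 0.577). The same held for Hsc70-2 and Hsc70-5 against melanogaster. The share of all genes without overlap was not counted. Against melanogaster, Hsp26 passed in 8 of 16 other settings and Hsp68 in 7 of 16. The member medians were -0.71 and -0.94, against 0.02 and 0.04 over all genes.

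Markers of other cells differed between the same groups. The mean log2 ratio of the 4 tested late spermatid genes (of 13 listed) was -3.06 to -2.50 in the melanogaster hybrid, against 1.21 to 1.51 in simulans and 1.47 to 2.07 in melanogaster. That of the 8 tested cup and comet genes (of 14) was -1.56 to -1.18, against 0.50 to 0.86 and 1.58 to 1.97. The 2 tested accessory gland genes (of 14) averaged 0.55 to 1.40 in the hybrid, against -3.37 to -3.12 in simulans and -4.95 to -3.90 in melanogaster, and the 4 tested fat body genes (of 9) 0.05 to 0.27, against -0.70 to -0.48 and -1.09 to -0.62. Blood cell genes (2 tested) averaged 0.33 to 0.63 in the hybrid, against -0.24 to 0.03 and -0.33 to -0.20, and eye genes (5 tested) -1.81 to -1.24, against -1.97 to -1.85 and -2.38 to -2.12. Muscle genes (7 tested) averaged -3.62 to -3.09 in the hybrid, against -2.10 to -1.60 in simulans and -2.19 to -1.84 in melanogaster. Gut genes (7 tested) averaged -2.60 to -2.09, against -3.11 to -2.69 and -3.28 to -2.53. The hybrid's arrays overlapped those of neither parent, except for gut genes in melanogaster, and the part of these differences in the Hsp60C result was not tested.

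Of the 27 co-chaperones, 4 were higher and 7 lower in the melanogaster hybrid than in simulans, where 9.69% of all genes were higher and 13.9% lower. Against melanogaster the counts were also 4 and 7, where 10.3% of all genes were higher and 20.1% lower. The J-domain genes mrj (-3.58 ± 0.51, SE, adjusted p = 2.54e-05) and DnaJ-H (-3.06 ± 0.49, adjusted p = 7.75e-05) and p23 (-2.43 ± 0.38, adjusted p = 6.04e-05) were lower than in simulans. Against melanogaster, HIP (-3.45 ± 0.43, adjusted p = 3.03e-06), DnaJ-H (-3.54 ± 0.49, adjusted p = 9.05e-06) and mrj (-3.61 ± 0.51, adjusted p = 1.40e-05) were lower. The 4 higher genes, chosen for naming after their values were seen, were the same against both parents. They were Hsf (1.28 ± 0.44 against simulans, adjusted p = 0.0410, and 1.61 ± 0.44 against melanogaster, adjusted p = 0.00818), stv, Pdi and Gp93, the Hsp90 of the endoplasmic reticulum. Hsf encodes the factor that switches on Hsp68 and Hsp26 under heat.

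In the mauritiana hybrid, Hsp60C was higher than in simulans, and no other member passed against either parent. Hsp60C differed from simulans by 2.76 ± 0.72 (SE, adjusted p = 0.0361), where 3.60% of all genes differed and 2.76% were higher. That call ended without simulans array 1, 2 or 3 or without hybrid array 2 or 3, down to 2.34 (adjusted p = 0.146), and with the closest array pairs averaged (2.97, adjusted p = 0.125). Hsp68 (1.73 ± 0.51, adjusted p = 0.0614), Hsp26 (1.1 ± 0.36, 0.0967), Hsc70-5 (1.43 ± 0.48, 0.105) and Hsc70-2 (1.34 ± 0.58, 0.219) were above simulans on every array and did not pass. Hsp60D (1.15 ± 0.90, 0.581) was above simulans on every array too. Hsc70-1 (-0.80 ± 0.71, 0.647) was below simulans on every array with a value, and neither passed. At an unadjusted p under 0.05 the count was 5 higher and 0 lower. The shares of all genes at that threshold, or above or below simulans on every array, were not counted. Against mauritiana, where 4.50% of genes differed, no member passed, at an unadjusted p under 0.05 either, with Hsp60C at -0.22 ± 0.68, Hsc70-5 at -0.70 ± 0.45, Hsc70-2 at -0.55 ± 0.55 and Hsp68 at 0.62 ± 0.47. The member median was 1.34 against simulans and -0.22 against mauritiana, beside 0.04 and 0.15 over all genes. Accessory gland genes averaged -1.09 to -0.15 in this hybrid, against -1.99 to -1.05 in mauritiana and -3.37 to -3.12 in simulans, and muscle genes -3.92 to -3.25, against -3.50 to -1.11 in mauritiana and -2.10 to -1.60 in simulans. Cup and comet genes averaged 1.01 to 1.88, against 1.08 to 1.99 in mauritiana and 0.50 to 0.86 in simulans. The part of these shifts in the result was not tested. No co-chaperone passed against simulans, and p23 was higher than in mauritiana (1.93 ± 0.35, adjusted p = 0.00338), beside 2.74% of all genes higher.

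The sechellia hybrid held less Hsp68 and Hsc70-5 than sechellia, and no member passed against simulans. Against sechellia, where 11.4% of genes differed and 6.01% were lower, Hsp68 fell by 1.83 ± 0.51 (SE, adjusted p = 0.0255) and Hsc70-5 by 1.65 ± 0.48 (adjusted p = 0.0331). Both ended without sechellia array 2 or 3 or hybrid array 1 or 3, down in size to -1.49 for Hsp68 (adjusted p = 0.0993) and -1.35 for Hsc70-5 (adjusted p = 0.119), and both ended with the closest array pairs averaged (adjusted p = 0.141 and 0.208). Hsc70-5 had -1.10 ± 0.43 on its higher-numbered row pair (adjusted p = 0.101), which did not pass, and -2.10 ± 0.64 on the other (adjusted p = 0.0380). Without the arrays that stand apart, Hsp68 was at -2.14 (adjusted p = 0.00359) and Hsc70-5 at -2.58 (adjusted p = 0.000107). In that setting 6 members passed, beside 1853 of the 5107 tested genes, against 583 with all arrays. Hsp60C, whose hybrid value on array 2 stood above those on arrays 1 and 3, was at -3.85 in that setting (adjusted p = 2.82e-06) and otherwise at -2.23 ± 0.72 (adjusted p = 0.0508). The member median was -1.65, beside 0.14 over all genes. Against simulans, where 13.6% of genes differed, no member passed, at an unadjusted p under 0.05 either. By quantile normalization or array weights 1 passed, beside 1486 and 2061 of the 5107 tested genes. Hsp68 had 0.78 ± 0.51 (adjusted p = 0.371) and Hsc70-5 -0.41 ± 0.48 (0.670), and the member median was 0.34, beside -0.10 over all genes. Of the co-chaperones 1 was higher and 9 lower than in simulans, among them HIP (-2.51 ± 0.43, adjusted p = 0.00111) and mrj (-2.72 ± 0.51, adjusted p = 0.00206), beside 1.35% of all genes higher and 12.3% lower. Against sechellia 1 co-chaperone was higher and 2 lower, beside 5.40% of all genes higher. Cup and comet genes averaged -1.01 to -0.21 in the sechellia hybrid, against -0.18 to 1.21 in sechellia and 0.50 to 0.86 in simulans. Eye genes averaged -2.82 to -0.95 in this hybrid, against -4.62 to -2.98 in sechellia. The part of both in these results was not tested.

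Between hybrids, in contrasts added after seeing the data, Hsp60C was lower in the melanogaster hybrid than in both others, with no overlap of arrays. The share of all genes without overlap was not counted. Against the mauritiana hybrid 4 of 7 members were lower, where 26.2% of genes differed and 18.2% were lower. Against the sechellia hybrid 1 of 7 was lower, where 18.7% differed and 6.09% were lower. In the mauritiana hybrid 2 of 7 members, Hsc70-5 and Hsp60C, were higher than in the sechellia hybrid, where 17.5% of genes differed and 16.0% were higher. Late spermatid genes averaged -3.06 to -2.50 in the melanogaster, 1.05 to 1.31 in the mauritiana and -0.64 to 0.55 in the sechellia hybrid. Cup and comet genes averaged -1.56 to -1.18, 1.01 to 1.88 and -1.01 to -0.21 in the same order. The part of these markers in the hybrid differences was not tested. All contrasts share the fit, and their values stand with the other results for a closer look.

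**Figure D5:**
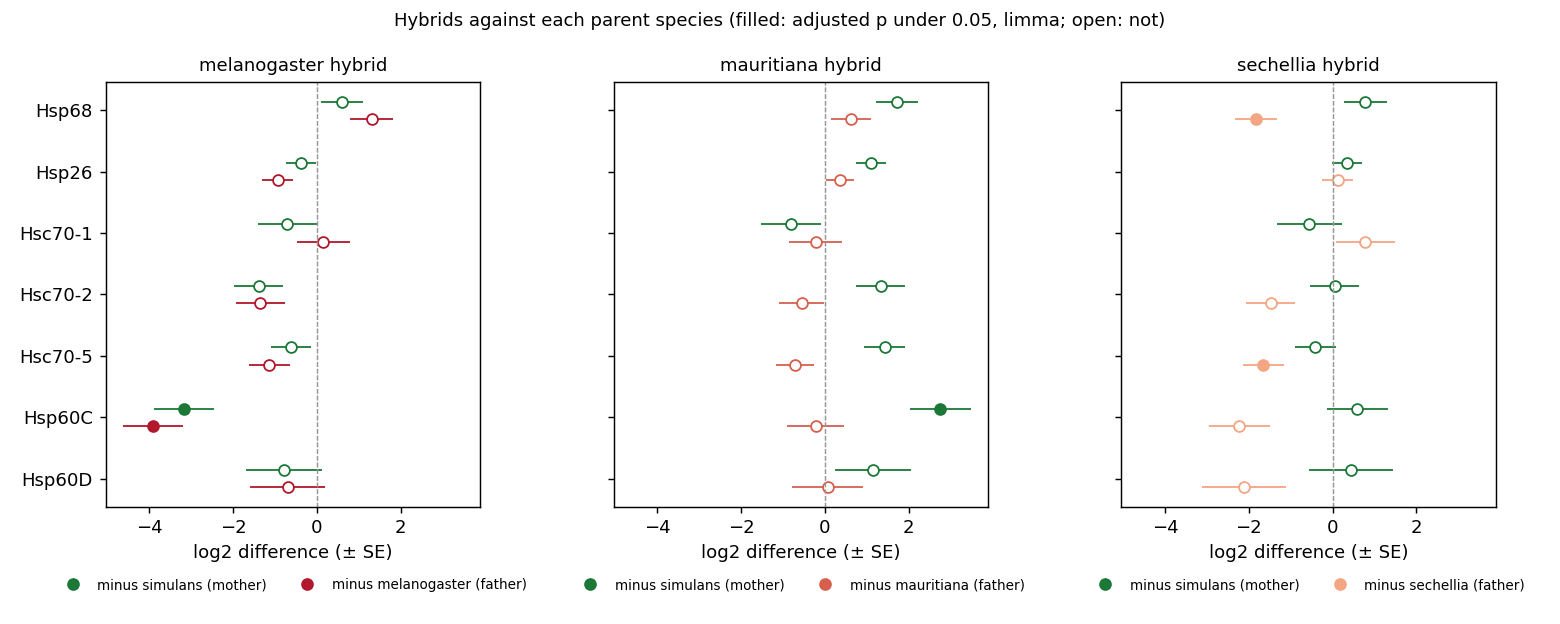
Log2 difference of each hybrid from its mother's species simulans and from its father's species (horizontal axis, ± SE) for the 7 members, filled where the adjusted p is under 0.05. Hsp60C of the melanogaster hybrid is filled on the left against both parents, at -3.17 and -3.91.

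Some genes outside the family had array profiles close to those of Hsp68 and Hsc70-5. Over the 22 arrays, which share the comparison RNA, and among 3020 other genes with a value on all of them, Hsp68 correlated most with CG10853 (Pearson r = 0.838), Tmem43 (0.817) and CG11670 (0.816). Hsc70-5 correlated most with Naa30A (0.957), Acer (0.952) and POLDIP2 (0.943). Naa30A averaged -1.94 in the melanogaster hybrid, 2.41 in the mauritiana hybrid, 3.14 in mauritiana, 0.05 in simulans and 0.60 in melanogaster. Hsc70-5 followed Hsc70-2 (r = 0.896, rank 43), Hsp60C (0.862, rank 88) and Hsp26 (0.673, rank 433) more closely than Hsp68 (0.473, rank 824). Hsp68 followed the constitutive Hsc70-2 (0.638, rank 33) and Hsp60C (0.501, rank 154) more closely than the stress-induced Hsp26 (0.292, rank 522).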

How the data were processed

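The deposited table holds, per array and row, a log ratio made by the authors, taken here as log2 of testes over whole males. The log2 scale was assumed from the range of the values and the direction from the order in the sample titles. Base, within-array normalization and scanner software are not given in the sources used here. There was no dye swap, and testis RNA was amplified in 1 round, per the labels' protocols. Rows with 1 symbol in the platform annotation were used. Arrays were centred on their median over these rows, rows of a gene averaged, and genes kept if every one of the 7 groups had 2 or more arrays with a value. All 22 arrays were fitted in limma 3.58.1 (R 4.3.3; lmFit, eBayes, group means) for 13 comparisons, with Benjamini-Hochberg adjustment over 5107 genes and a threshold of 0.05. Hybrid against hybrid contrasts were added after seeing the data. Every member was named, plus up to 3 co-chaperones per comparison with the smallest p and the 3 genes most correlated with Hsp68 and Hsc70-5. The members and lists were chosen with earlier results of these data known. The fit was tested on simulated data. Alternatives covered centring, scaling, quantile normalization, filters, rows per gene, spread, array weights, replicate block and left-out arrays. No sequences were printed.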

Additional observations from a re-analysis of the deposited data

Results flagged for a closer look

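The hybrids differed from each other in their differences from simulans, which they share as the mother's species. These hybrid minus hybrid contrasts were tested with limma after the data had been seen. Between the melanogaster and the mauritiana hybrid, where 26.2% of genes differed and 18.2% were lower, Hsp60C stood at -5.93 ± 0.72 (SE, adjusted p = 2.87e-06), Hsc70-2 at -2.73 ± 0.58 (adjusted p = 0.00119), Hsc70-5 at -2.05 ± 0.48 (adjusted p = 0.00280) and Hsp26 at -1.48 ± 0.36 (adjusted p = 0.00393). No array of one hybrid overlapped the other for these 4 genes, and the share of all genes without overlap was not counted. Hsp60C, Hsc70-2 and Hsp26 held in every setting run, and Hsc70-5 did not pass on its higher-numbered row pair alone (-0.96, adjusted p = 0.112).

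Between the melanogaster and the sechellia hybrid, where 18.7% of genes differed and 6.09% were lower, Hsp60C stood at -3.77 ± 0.72 (SE, adjusted p = 0.000967) and held in all settings. Between the mauritiana and the sechellia hybrid, where 17.5% of genes differed and 16.0% were higher, Hsc70-5 stood at 1.83 ± 0.48 (adjusted p = 0.0118) and Hsp60C at 2.17 ± 0.72 (adjusted p = 0.0430). Hsp60C there passed in 9 of 16 settings and in 1 of 6 fits with an array left out, with a lowest value of 1.44 (adjusted p = 0.243) without sechellia hybrid array 3. Hsc70-5 ended without mauritiana hybrid array 3 (1.73, adjusted p = 0.055) or sechellia hybrid array 1 (1.62, adjusted p = 0.0594) or 3 (1.6, adjusted p = 0.0616). Its higher-numbered row pair gave 1.02 (adjusted p = 0.112), which did not pass, and the other 2.64 (adjusted p = 0.00677). Both values also ended with the closest array pairs averaged, at 1.61 (adjusted p = 0.101) for Hsc70-5 and 1.63 (adjusted p = 0.267) for Hsp60C.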

How the results depend on the processing

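No called value changed sign under any alternative. Only the larger shifts in the count of members called are listed, each with the number of all genes called after the comparison. Smaller shifts are left out, such as from 3 to 2 for mauritiana over simulans (97) with the closest array pairs averaged. With no centring the counts were 1 (mauritiana over melanogaster, 211), 5 (sechellia over simulans, 901), 0 (mauritiana hybrid over simulans, 113) and 4 (sechellia hybrid over sechellia, 704). Centring on the tested genes gave 5 (sechellia over simulans, 1278) and 2 (melanogaster hybrid over melanogaster, 1662). Scaling arrays to 1 spread gave 0 (mauritiana over melanogaster, 181), 2 (sechellia over melanogaster, 1397), 5 (mauritiana over simulans, 982), 0 (mauritiana over sechellia, 829), 3 (melanogaster hybrid over melanogaster, 1809), 4 (mauritiana hybrid over simulans, 592) and 0 (sechellia hybrid over sechellia, 380). Quantile normalization gave 5 (mauritiana over simulans, 1194), 3 (melanogaster hybrid over melanogaster, 2089), 5 (mauritiana hybrid over simulans, 689), and 1 in both comparisons of the sechellia hybrid (over simulans, 1486, and over sechellia, 373). Genes on all 22 arrays, with 5 members left, gave 3 (melanogaster hybrid over melanogaster, 1240) and 2 (mauritiana hybrid over simulans, 220). Genes on at least 1 array of each group gave 1 (mauritiana over melanogaster, 263) and 0 (mauritiana hybrid over simulans, 128), and 1 row per gene gave 0 (mauritiana hybrid over simulans, 132) and 1 (sechellia hybrid over sechellia, 348). With the spread of the compared arrays only, counts were 1 (sechellia over melanogaster, 726), 1 (sechellia over simulans, 329), 0 (mauritiana over sechellia, 169), 3 and 5 (melanogaster hybrid over simulans and over melanogaster, 2339 and 2668), 4 (mauritiana hybrid over simulans, 513) and 0 (sechellia hybrid over sechellia, 0). With array weights they were 3 (simulans over melanogaster, 2884), 5 (mauritiana over melanogaster, 1861), 5 (mauritiana over simulans, 2059), 5 and 6 (melanogaster hybrid over simulans and over melanogaster, 2872 and 3257), 6 (mauritiana hybrid over simulans, 1650) and 1 (sechellia hybrid over simulans, 2061). Without the sechellia arrays they were 5 (mauritiana over melanogaster, 824), 5 (melanogaster hybrid over melanogaster, 2036) and 3 (mauritiana hybrid over simulans, 460). With the closest array pairs averaged, which may be repeat runs, they were 0 (mauritiana over melanogaster, 50), 1 (sechellia over melanogaster, 1021), 0 (mauritiana over sechellia, 883), 0 (mauritiana hybrid over simulans, 7) and 0 (sechellia hybrid over sechellia, 51).

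Without the 3 arrays that stand apart from their groups, chosen after seeing the data, counts were 6 (sechellia over simulans, 2179), 2 (mauritiana over sechellia, 1697), 2 and 5 (melanogaster hybrid over simulans and over melanogaster, 1579 and 1991), 3 (mauritiana hybrid over simulans, 583) and 6 (sechellia hybrid over sechellia, 1853). The replicate block gave 0 (mauritiana over sechellia, 740), 2 (melanogaster hybrid over melanogaster, 1589), and a value of 1.95 (adjusted p = 0.05) for Hsc70-2 in mauritiana over simulans. With the block Hsc70-5 in mauritiana over melanogaster (1.37, adjusted p = 0.0884), Hsp60D in sechellia over simulans (2.55, adjusted p = 0.0552), Hsp68 in mauritiana over sechellia (-1.38, adjusted p = 0.0864) and Hsp60C in the mauritiana over the sechellia hybrid (2.17, adjusted p = 0.0567) did not pass either. Hsc70-5 in melanogaster testes (0.95, adjusted p = 0.0439) and Hsp26 in the melanogaster hybrid over melanogaster (-0.94, adjusted p = 0.0429) passed with it. Arrays with the same number in other groups deviated together at a median r of only 0.036 (-0.329 to 0.374), against -0.036 (-0.443 to 0.357) for other numbers. The 2 ranges overlap widely, so whether the numbers pair the samples cannot be told from them. Leaving out 1 array at a time gave 0 to 4 calls (mauritiana over melanogaster), 1 to 4 (sechellia over melanogaster), 1 to 4 (mauritiana over simulans), 2 to 6 (sechellia over simulans), 0 to 3 (mauritiana over sechellia), 1 to 2 and 1 to 3 (melanogaster hybrid over simulans and over melanogaster), 0 to 1 (mauritiana hybrid over simulans) and 0 to 6 (sechellia hybrid over sechellia). The number of all genes called moved as well. For the species comparisons in that order, it ran from 86 to 499, 1162 to 2090, 191 to 765, 696 to 1954 and 745 to 1535. For those of the hybrids it ran from 879 to 1029, 1215 to 1374, 12 to 283 and 140 to 1609. The cause of these shifts was not tested. Signal over background is not given in the deposited values, so dim rows could not be told from bright ones.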
